A study of Mus musculus with 18 samples.

Results

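The genes described here are 80 mouse olfactory receptor genes that had counts in T cell libraries labelled Treg. They are the genes whose symbol starts with Olfr, that are not pseudogenes, and whose counts summed over the 6 Treg libraries reached 10. The table of 55487 genes held 1407 genes named Olfr, of which 313 were pseudogenes and were left out. Of the 1094 that remained, 80 met the rule, 330 had 1 to 9 Treg counts and 684 had none. The rule used the Treg counts themselves, so the height of these genes in the Treg libraries is given as a description and was not tested.

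Olfactory receptors are G protein-coupled receptors of the sensory neurons of the nose and form the largest gene family of the mouse genome, in clusters on many chromosomes. Each mature olfactory sensory neuron expresses a single receptor allele, chosen with the help of silencing chromatin and of enhancers shared across clusters. An odorant bound by the receptor acts through the G protein subunit Gnal, the adenylate cyclase Adcy3 and the cyclic nucleotide-gated channel subunit Cnga2. T cells are not a known main site of their expression, though a few olfactory receptors have been described outside the nose.

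The series holds 18 libraries, 3 for each of 6 groups, of T cells sorted by flow cytometry from mouse spleen and cultured for 72 h with plate-bound anti-CD3 at 2 µg/ml, anti-CD28 at 2 µg/ml and IL-2 at 10 ng/ml. The groups are Treg, CD4 and CD8 cells of Foxp3 YFP/cre Ebi3 -/- mice, called KO, and of Foxp3 YFP/cre mice, called WT, so every group carries the Foxp3 YFP/cre allele, in which the Foxp3 locus drives a fluorescent Cre recombinase. Ebi3 encodes the β subunit of the cytokines IL-27 and IL-35. Libraries were made from 500 ng of total RNA with a QuantSeq 3′ FWD kit, in which an oligo(dT) primer starts the copying of RNA and 1 read counts the 3′ end of a transcript, with unique molecular identifiers. The labels used here give neither ages nor sexes, nor whether each replicate came from its own animal or culture. The p-values therefore speak of the spread among these samples alone, which may be technical.

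Total counts ran from 841892 to 1089003 in the 6 Treg libraries and from 1358671 to 2255950 in the 12 CD4 and CD8 libraries, so the Treg libraries were the shallower ones. Foxp3, which defines Treg cells, had 3 counts over all Treg libraries, 3 over CD4 and 1 over CD8. Every group carries the altered Foxp3 allele, and whether its 3′ tags are counted as Foxp3 is not known here. The Treg libraries held both Cd4 (45.7 CPM, counts scaled to the library total; CD4 125 and CD8 0.257) and Cd8a (35.1 CPM; CD4 0.793 and CD8 189), so the label Treg was not borne out by these markers and is used here only as the label. Ebi3 was counted in every library, at 23.1 to 33.2 CPM in KO and 23.8 to 38.6 CPM in WT Treg libraries, 20.8 to 26.7 in KO and 39.9 to 61.1 in WT CD4 libraries, and 24.5 to 34.2 in KO and 28.6 to 30.5 in WT CD8 libraries. KO and WT were apart in CD4 and overlapped in Treg and CD8, and whether the 3′ tag lies in the deleted part is not known here. In the Treg libraries, replicates 1 and 3 of KO, and replicates 1 and 2 of WT, differed by less than the sampling noise and were counted as 1 sample each, which leaves 2 KO and 2 WT samples. Of the 9 pairs of a KO and a WT Treg library, 4 likewise differed by less than the sampling noise, whereas all pairs of CD4 and of CD8 libraries within a group differed by more. Every value below that rests on the Treg libraries carries these limits, and in bulk samples fewer cells of a type and less RNA per cell cannot be told apart.

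The 80 genes had 10 to 121 Treg counts each, with a median of 16.5, and 1755 in all, which is 62.7% of the 2798 Treg counts of olfactory receptor genes that are not pseudogenes. The 8 highest held 28.1% of those 1755 counts. Of the 80 genes, 30 reached 20 counts and 14 reached 30. Nearly every gene was spread over the libraries: 59 were counted in all 6 Treg libraries, 17 in 5, 3 in 4, and only Olfr1342 in fewer. At the edge of the rule, Olfr117, Olfr1233 and Olfr135 had 10 Treg counts each, and Olfr101, Olfr115 and Olfr1262, just outside, had 9 each, with no CD4 or CD8 count for any of the 6.

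The 8 highest genes lay on 5 chromosomes. For each, the longest run of A in the longest annotated transcript lay in the 3′ untranslated region. These runs are shown because runs of 10 or more A were more frequent in members than in the other olfactory receptor genes, as given further on. The stretches of 30 bases below come from GENCODE M21 transcripts (GRCm38), are written 5′ to 3′ on the gene's strand, and capitals mark the longest run of A.
Olfr1258, chr2:89932277-89932306, plus strand: aaagaagAAAAAAAAAAAAAAAAgctatac
Olfr684, chr7:105155412-105155441, minus strand: tctcaaaaagAAAAAAAAAgaataaatttg
Olfr432, chr1:174053320-174053349, plus strand: agaggatgagAAAAAAAAAtctcaggctcc
Olfr1152, chr2:87869518-87869547, plus strand: ttgagatttAAAAAAAAAAAAccttgtcat
Olfr39, chr9:20286642-20286671, plus strand: caacaccAAAAAAAAAAAAAAAcaaaacaa
Olfr1118, chr2:87313008-87313037, plus strand: tattatttAAAAAAAAAAAAAgagagggag
Olfr920, chr9:38760036-38760065, plus strand: aattgccAAAAAAAAAAAAAAAAgaaaaga
Olfr314, chr11:58787931-58787960, plus strand: tcaaaagactgAAAAAAAAtcacaaattct
The runs measured 16, 9, 9, 12, 15, 13, 16 and 8 bases in that order, and 3 of the 8 (Olfr684, Olfr432 and Olfr314) fell short of 10. The median longest run was 7 bases over all 1094 olfactory receptor genes that are not pseudogenes, and 10.5 in the 80 members. The run of Olfr920 ended 59 bases before the annotated transcript end, and the others ended 593 bases or more before it.

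Olfr1258 had the highest Treg sum of the family, with 23, 21 and 14 counts in KO Treg libraries 1 to 3 and 25, 23 and 15 in WT Treg libraries 1 to 3. In the other 12 libraries it had 2 counts, both in 1 CD8 KO library. KO and WT overlapped, and every Treg library lay above every other library. Its pooled level was 247-fold that of the CD4 and CD8 libraries together, with an exact 95% counting interval of 66.8 to 2059.

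Olfr684 had 20, 13 and 9 counts in KO Treg libraries and 16, 17 and 18 in WT Treg libraries. Olfr432 had 9, 12 and 9 in KO and 11, 8 and 11 in WT. Neither gene had a count in any CD4 or CD8 library, and both were present in all 6 Treg libraries. Against a floor of 3 counts over those 12 libraries together, which is 0.130 CPM, Olfr684 was at least 126-fold and Olfr432 at least 81.5-fold higher in the Treg libraries. In the annotated transcripts, 11.7% of the 50-base stretches of Olfr684 also occur in its neighbour Olfr683, and Olfr432 overlaps Olfr431-ps1, so how the reads were split between such genes is uncertain.

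Olfr39 had 4, 9 and 9 counts in KO Treg libraries and 7, 9 and 9 in WT Treg libraries, against 0 over CD4 and 1 over CD8. Olfr1118 had 7, 5 and 5 in KO and 6, 11 and 10 in WT, and Olfr314 had 7, 9 and 3 in KO and 5, 6 and 7 in WT. The last 2 genes had no CD4 or CD8 count. All 3 genes were low per library and were seen in each of the 6 Treg libraries.

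Olfr920 and Olfr1152 had the most counts of the members in CD4 and CD8 libraries. Olfr920 had 9, 6 and 6 counts in KO Treg libraries and 5, 7 and 11 in WT Treg libraries, against 11 over the CD4 and 11 over the CD8 libraries. Its count was above 0 in 10 of the 12 CD4 and CD8 libraries, and its pooled Treg level was 8.15-fold theirs (95% interval 4.78 to 14.3), the lowest ratio among the members with such a count. Olfr1152 had 3, 8 and 9 counts in KO Treg libraries and 9, 10 and 9 in WT Treg libraries, against 7 over CD4 and 4 over CD8, a ratio of 17.8 (95% interval 9.11 to 38). These 2 genes held 33 of the 63 counts that the 80 genes had in CD4 and CD8 libraries. Olfr166 and Olfr373, with 26 and 12 Treg counts, had 4 each in CD4 and CD8 together, and Olfr691 had 3. Olfr1152 overlaps Gm13745 and Olfr373 overlaps Gm45543 in the annotation.

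**Figure D1:**
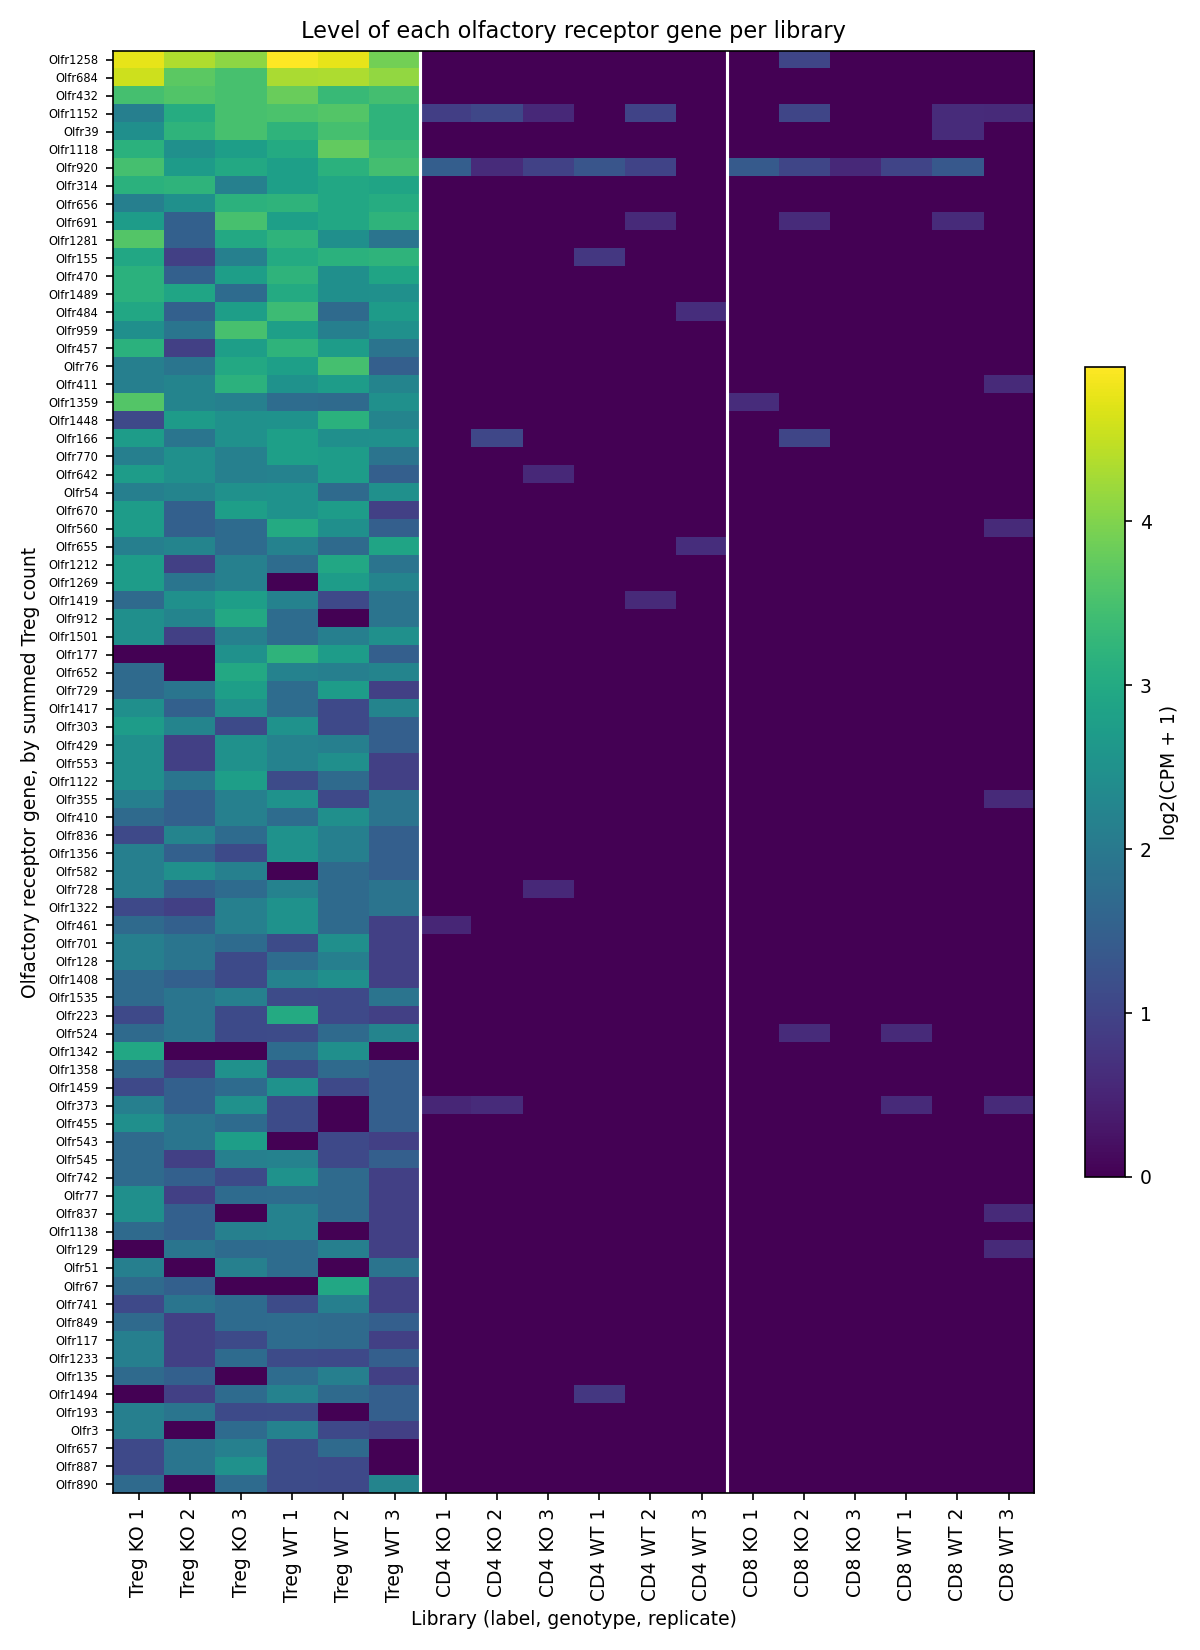
Level of each of the 80 olfactory receptor genes (down the page, by summed Treg count) in each of the 18 libraries (across), as log2(CPM + 1). The 6 Treg columns are filled in nearly every line, while the CD4 and CD8 columns are at 0 apart from 22 genes, of which Olfr920 and Olfr1152 recur.

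Over the CD4 and CD8 libraries, 58 of the 80 genes had no count, 17 had 1 or 2, and 5 had 3 or more. Detection was 80 genes in Treg, 13 in CD4 and 14 in CD8 libraries, the first of these by the rule. Per library, 74 to 77 of the 80 genes had a count in Treg, 2 to 4 in CD4 and 1 to 7 in CD8 libraries, although the Treg libraries were the shallower ones. Scaled to a common depth of 841892 counts, the expected number detected was 69.6 to 76.6 in Treg, 0.960 to 2.29 in CD4 and 0.405 to 3.62 in CD8 libraries.

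The summed level of the 80 genes in the 3 KO and the 3 WT Treg libraries ran from 237 to 363 CPM. It was 1.14 to 3.55 CPM in the CD4 libraries and 0.481 to 5.22 CPM in the CD8 libraries. Pooled, the level of 311 CPM in Treg was 114-fold that of CD4 at 2.73 CPM (95% counting interval 79.8 to 168) and 113-fold that of CD8 at 2.74 CPM (79.9 to 166). The CD8 and CD4 levels had a ratio of 1.004, with an interval of 0.593 to 1.70. Intervals and floors cover counting error only. In the edgeR fit over 18963 genes, 31.8% of all genes passed an adjusted p of 0.05 as higher in Treg than in CD4 and 33% as higher in Treg than in CD8, and all 80 members did in both. The members were chosen on these libraries, so nothing is read from that count.

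The same direction held outside the 80. The other 1014 olfactory receptor genes had 1043 counts in Treg, 85 in CD4 and 84 in CD8 libraries, which is 185 CPM in Treg against 7.49 in CD4 and 7.20 in CD8. Part of that group was kept low in Treg by the rule, so its ratios of 24.7 over CD4 and 25.6 over CD8 are a description too. They were nonetheless lower than those of the members, as the choice on Treg counts makes them. Of this larger group, 330 genes were detected in Treg, 33 in CD4 and 40 in CD8 libraries.

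Olfactory receptors named in work outside the nose were hardly counted. Olfr544 had 6 Treg counts and Olfr558 had 3. Olfr2 and Olfr1393 had 1 each, with 1 CD8 count for Olfr1393. Olfr16 and Olfr78 had none in any library, but Olfr78 overlaps the member Olfr560 (21 Treg counts) on the same strand, so the split of reads between these 2 genes is uncertain. None of these 6 genes is among the 80.

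Members were spread over many chromosomes, as uneven shares of the olfactory receptor genes on each. Chromosome 7 held 19 members of 237 olfactory receptor genes (8.02%), chromosome 2 held 11 of 280 (3.93%), chromosome 9 held 10 of 129 (7.75%) and chromosome 19 held 8 of 63 (12.7%). The other 32 members lay on 11 further chromosomes. No single chromosome held most of them, and clusters within chromosomes were not counted.

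Taken gene by gene, the members varied between Treg libraries about as much as counting alone would give. The chi-square per degree of freedom over the 6 libraries averaged 0.996 over the 80 genes, with a median of 0.793 and a range of 0.148 to 3.59. The 5620 other protein-coding genes in the same range of Treg counts averaged 0.895. With so few counts per gene, this measure can miss a shift shared by many genes. The summed level of the 80 genes was 237 CPM in KO replicate 2 and 263 CPM in WT replicate 3, the deepest Treg libraries. It was 336 to 363 CPM in the other Treg libraries. Vomeronasal receptors summed to 241 and 242 CPM in the same deepest libraries, against 293 to 327 CPM. The cause of this shift was not tested. The most uneven member was Olfr1342, with 6, 0 and 0 counts in KO Treg libraries and 2, 4 and 0 in WT Treg libraries, named here after its values were seen.

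KO and WT were then compared within each label, which addresses whether loss of Ebi3 moved these genes and which the rule did not use. With edgeR's quasi-likelihood test, 0 of the 80 genes passed an adjusted p of 0.05 in the Treg libraries, where 0% of all genes did. At an unadjusted p under 0.05, 2 members (2.5%) passed against 1.62% of all genes, and DESeq2 called 0 members, with 0 at an unadjusted p. Of the 80 fold changes 33 were above and 47 below 0, with a median log2 fold change of -0.03 beside -0.02 over all genes. The 2 members were Olfr543 and Olfr177, named after their values were seen. Olfr543 had 2, 3 and 5 counts in KO Treg libraries and 0, 1 and 1 in WT Treg libraries, a log2 fold change of 2.19 (SE 1.01, edgeR adjusted p = 1). Olfr177 had 0, 0 and 4 counts in KO and 7, 5 and 2 in WT, a log2 fold change of -1.79 (SE 0.87, edgeR adjusted p = 1).

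The highest members showed how wide the errors were. Olfr1258 had a log2 fold change of -0.12 (SE 0.36) in KO against WT Treg libraries, with a 95% interval of -0.82 to 0.58. Olfr684 had -0.31 (SE 0.37), with an interval of -1.05 to 0.42. Olfr432 had -0.02 (SE 0.43), with an interval of -0.87 to 0.83. None of the 3 passed, and all 3 intervals reach a log2 fold change of -0.82 or lower, so the absence of calls does not show that KO and WT were alike. In simulated data with a 4-fold change put into the 80 genes, the same comparison called 31.25% of them, which limits what could be detected at these counts.

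**Figure D2:**
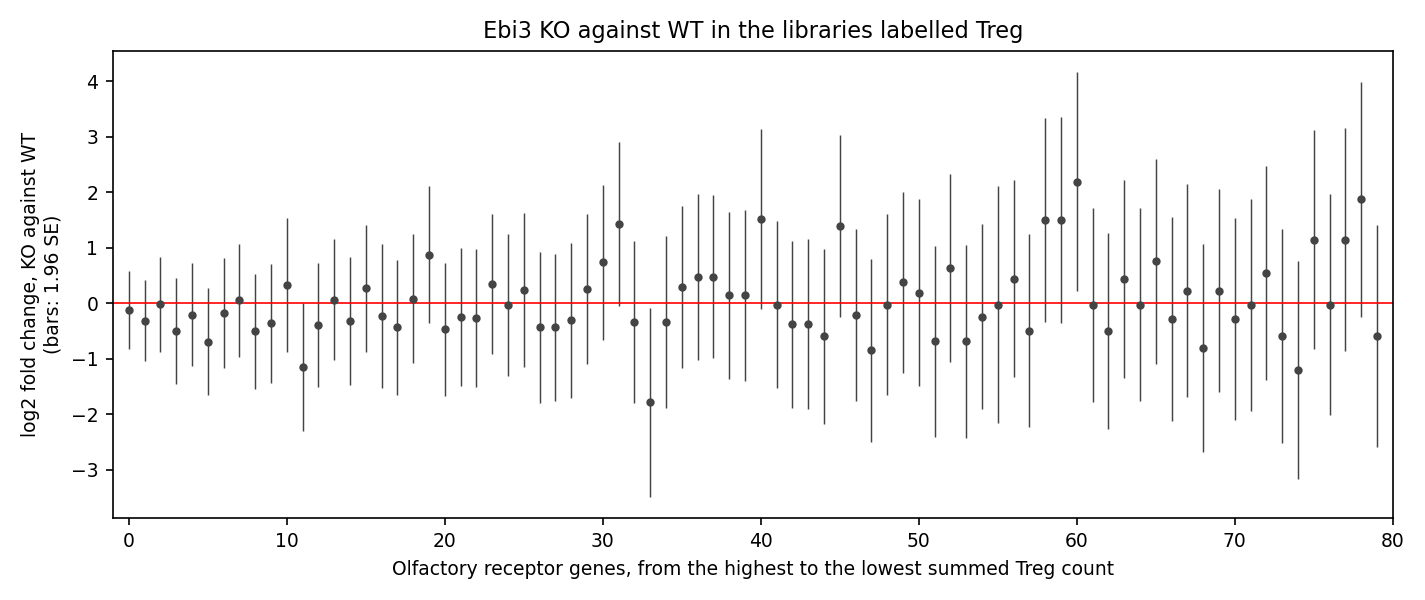
Log2 fold change of each of the 80 olfactory receptor genes in the Treg libraries labelled KO against those labelled WT (points, ordered from the highest to the lowest summed Treg count), with bars for the approximate 95% interval. The bars widen to the right as counts fall, with 33 points above and 47 below 0.

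In the CD4 libraries 0 of the 80 genes passed in KO against WT, where 0% of all genes passed, and in the CD8 libraries 0 passed, where 0.0949% of all genes did. In CD8 against CD4 libraries 0 passed, where 3.83% of all genes did. The count at an unadjusted p was 0 members in each of these 3 comparisons, against 5.68%, 12% and 11.9% of all genes. DESeq2 called 0 members in KO against WT CD4, and 0 of the 26 members given an adjusted p in CD8 against CD4. It gave no adjusted p for any member in KO against WT CD8. With 31 counts over CD4 and 32 over CD8 for all 80 genes, a difference in single genes was not detectable at this depth. The difference of the KO effect between labels was also tested in edgeR. For Treg minus CD4, 0 members passed, where 0% of all genes did, with 0 members and 2.9% of all genes at an unadjusted p under 0.05. For Treg minus CD8, 0 passed, where 0% of all genes did, with 0 members and 4.91% of all genes at an unadjusted p. For CD8 minus CD4, 0 passed, where 0.00527% of all genes did, with 1 member and 13.2% of all genes at an unadjusted p.

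More genes were detected in the Treg libraries in all. At the common depth, 19760 ± 341 genes were expected with a count in Treg samples, 15028 ± 56.7 in CD4 and 15001 ± 132 in CD8 samples (SD, n = 4, 6 and 6). The Treg samples were higher than CD4 by 4732 genes and than CD8 by 4759 genes, without overlap in either comparison (exact two-sided permutation test, p = 0.00952 for each, the smallest that 210 arrangements allow, adjusted p = 0.0143 over 9 tests). These p-values, and those of the family sums below, count the 4 Treg samples as separate. Because 4 of the 9 pairs of a KO and a WT Treg library differed by less than the sampling noise, they may be too small. CD8 minus CD4 was -26.9 genes, with overlap (exact permutation test, p = 0.660). Leaving out all genes named Olfr, the numbers were 19551 ± 323 in Treg, 15021 ± 57.2 in CD4 and 14993 ± 132 in CD8 samples.

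**Figure D3:**
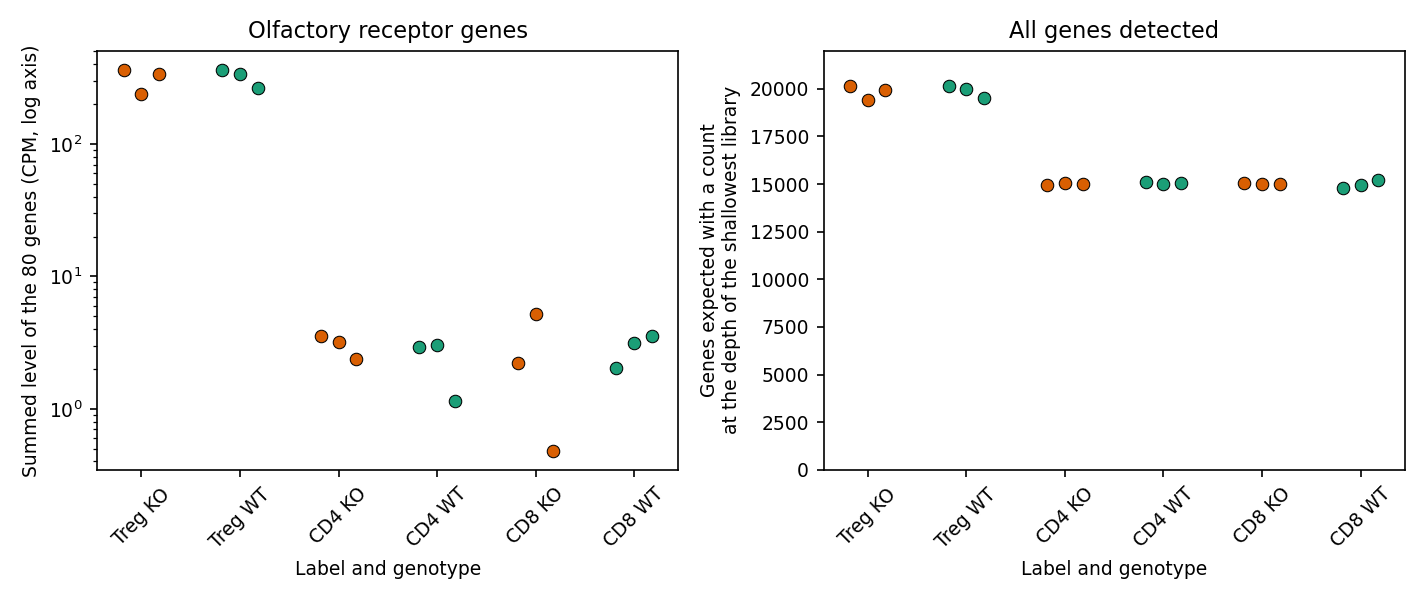
Left, summed level of the 80 olfactory receptor genes in CPM on a log axis, and right, all genes expected with a count at 841892 counts, for each of the 18 libraries by label and genotype. On both, the 6 Treg libraries lie above the other 12 (237 to 363 CPM for the 80 genes), and the KO and WT points of the Treg libraries overlap.

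Several other measures moved with the label in the same libraries. Ribosomal RNA genes took 3.84% to 4.51% of counts in Treg libraries, 1.72% to 2.35% in CD4 and 1.84% to 2.11% in CD8. Long intergenic noncoding RNA took 1.84% to 1.99% in Treg, 0.754% to 1.01% in CD4 and 0.747% to 0.908% in CD8. Protein-coding genes took 84.2% to 85.6% in Treg, 90.2% to 91.5% in CD4 and 90.6% to 91.6% in CD8. None of these ranges overlapped between Treg and the other labels. The part of these shares in the olfactory receptor counts was not tested, and with the label they cannot be told apart.

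Levels of other receptor and tissue-restricted families were set beside the olfactory receptors. Pseudogenes were not left out of these families, as they were from the olfactory receptors. Vomeronasal receptors, the pheromone receptors of the vomeronasal organ (567 genes), summed to 275 ± 38.1 CPM in Treg, 7.15 ± 3.04 in CD4 and 6.38 ± 2.75 in CD8 samples (SD, n = 4, 6 and 6). On the log2(CPM + 1) scale the Treg samples were higher by 5.14 than CD4 and by 5.30 than CD8, without overlap (exact permutation test, p = 0.00952, adjusted p = 0.0143 for each). Of the 567 genes, 174 were counted in Treg, 27 in CD4 and 29 in CD8 libraries. Vmn2r5 had 94 counts in Treg, 1 in CD4 and 0 in CD8 libraries, and Vmn2r56 had 85 in Treg and none in the others. Vmn1r197 and Vmn1r86, of the other vomeronasal class, had 50 and 39 Treg counts with none elsewhere. Each of the 4 was present in all 6 Treg libraries. They were named as the 4 called genes with the largest change in Treg against CD4, and entered the fit only with their Treg counts. Their likeness to Olfr684 and Olfr432 follows from that choice, and nothing is read from it.

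Taste receptors (43 genes), which sense tastants on the tongue, summed to 4.99 ± 1.66 CPM in Treg, 0.796 ± 0.415 in CD4 and 1.02 ± 0.436 in CD8 samples. Only 5 of the 43 genes had a Treg count, and 1 had 10 or more, so the family sum rests on few genes. They were higher in Treg by 1.74 than in CD4 and by 1.55 than in CD8 on the log2(CPM + 1) scale (exact permutation test, n = 4 and 6, p = 0.00952, adjusted p = 0.0143 for each). Keratin-associated proteins of the hair shaft (58 genes) had 4 counts in Treg, 1 in CD4 and 0 in CD8 libraries, which did not pass (exact permutation test, p = 0.0667, adjusted p = 0.0750 for each). Of the trace amine-associated receptors, a family that includes nasal receptors (16 genes), only Taar1 was counted. It had 3 counts in Treg and none in CD4 and CD8 libraries. The pattern of the olfactory receptors was thus shared most plainly by the vomeronasal receptors.

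**Figure D4:**
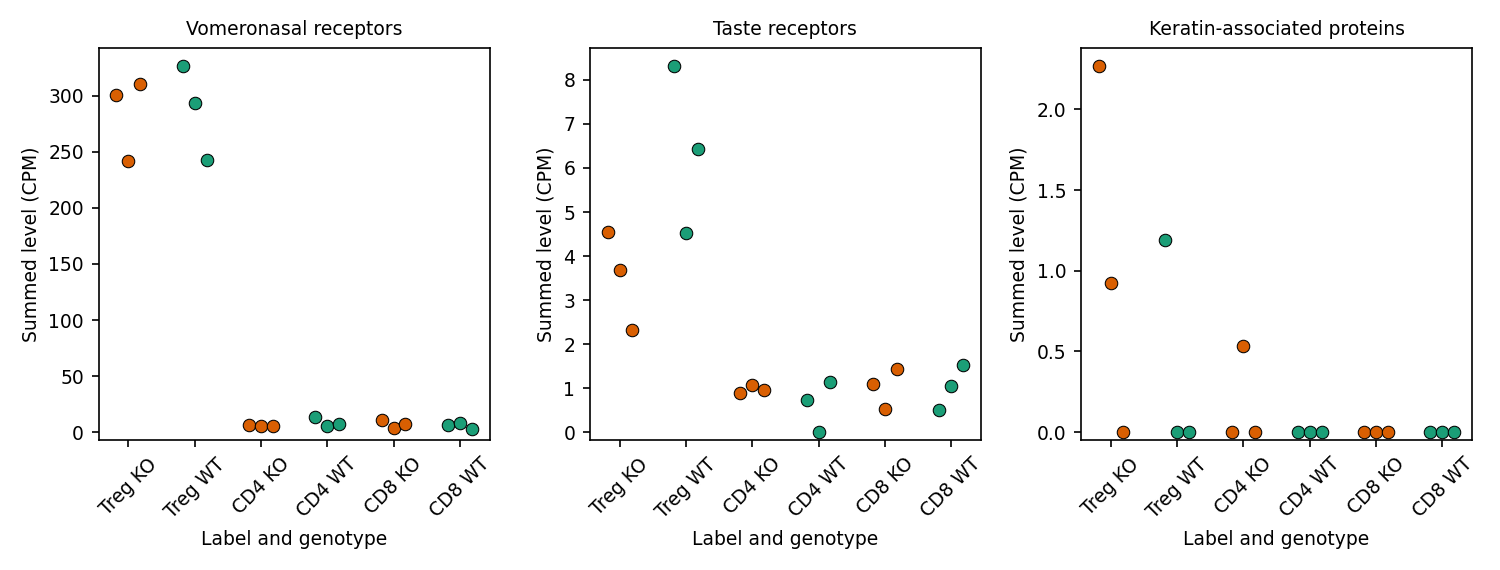
Summed level in CPM of vomeronasal receptors (567 genes), taste receptors (43) and keratin-associated proteins (58) in each library by label and genotype, on separate linear axes. The 6 Treg libraries lie above the other 12 for the first 2 families and overlap them for the keratin-associated proteins.

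Genes with no count in any CD4 or CD8 library gave a common base for the olfactory receptors and all other genes. Of 1011 olfactory receptor genes without such a count, 58 (5.74%) had 10 or more Treg counts and 356 (35.2%) had at least 1. Of 5702 other protein-coding genes without such a count, 330 (5.79%) had 10 or more and 1671 (29.3%) at least 1. The shares reaching 10 counts lay close together, and nothing particular to the receptors is read from them.

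Other genes of the olfactory pathway were read from the same libraries. Of the 12 markers of olfactory sensory neurons, 5 had Treg counts, and summed marker levels were 18.4 to 24.8 CPM in Treg, 11.97 to 16.9 in CD4 and 9.40 to 19.3 in CD8 libraries. Every Treg library lay above every CD4 library, while Treg and CD8 overlapped. Omp, the marker protein of mature olfactory neurons, had 0 counts in Treg, 5 in CD4 and 11 in CD8 libraries. The channel subunits Cnga2 and Cnga4, the chloride channel Ano2, Gng8 and the receptor transporters Rtp1 and Rtp2 were at 0 in all 18 libraries. Stoml3, a stomatin-like protein of sensory neurons, had 32 counts in Treg, 2 in CD4 and 0 in CD8, and Gap43, a growth cone protein of young neurons, had 28 in Treg, 3 in CD4 and 4 in CD8. Most counts of these 2 genes came from Treg libraries, and no test is read from them, since they entered the fit only with those counts. The other markers counted in Treg were Gng13, a G protein γ subunit, with 26 counts against 63 in CD4 and 46 in CD8, and Adcy3 and Gnal. The part of such cells in the receptor counts was not tested.

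Of 19 genes of olfactory signal transduction and receptor transport in the table, 11 entered the fit. Gnb1, a β subunit of G proteins used in many tissues, passed as lower in Treg against CD4 (log2 fold change -0.39, SE 0.10, edgeR adjusted p = 0.000840) and against CD8. Reep1, a transport factor, passed as lower against CD8, with 6 counts in Treg, 22 in CD4 and 58 in CD8. In these comparisons 51% of all genes were called against CD4 and 52.4% against CD8. Pde1c, a phosphodiesterase that breaks down cyclic nucleotides, had 8 counts in Treg, 3 in CD4 and 0 in CD8, and Omp the counts given above. Both entered the fit, which asks for 10 summed counts, only through the label where they were high, so no test is read from them. Gnal had 15 counts in Treg, 31 in CD4 and 27 in CD8, and Adcy3 had 19 in Treg, 51 in CD4 and 75 in CD8, and neither passed.

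Factors that set olfactory receptor choice moved in both directions. Of 14 gene IDs tested, 5 passed as higher and 7 as lower in Treg against CD4, and 5 as higher and 6 as lower in Treg against CD8. Over all genes 31.8% passed as higher against CD4 and 33% against CD8. As lower, 3637 of all 18963 genes passed against CD4 and 3689 against CD8. Ddit3 has 2 IDs among the 14, both higher, and Ebf1 is also a B cell gene. Ebf2 entered the fit only with its Treg counts, and Lhx2 only with its CD4 and CD8 counts. No test is therefore read from Ebf2 or Lhx2. Atf5, a transcription factor of the unfolded protein response that receptor protein triggers in olfactory neurons, was at 306 CPM in Treg, 54.8 in CD4 and 66.3 in CD8 (log2 fold change 2.49 in Treg against CD4, SE 0.11, edgeR adjusted p = 1.57e-21). Ebf2, a factor that binds olfactory receptor promoters and enhancers, had 27 counts in Treg, 2 in CD4 and 0 in CD8. Ldb1, the partner that holds enhancers together, fell to 15.9 CPM in Treg, against 40.9 in CD4 and 30.3 in CD8 (log2 fold change -1.30 in Treg against CD4, SE 0.33, edgeR adjusted p = 0.00458). Cbx5, a heterochromatin protein, was at 231 CPM in Treg, 426 in CD4 and 428 in CD8. Lhx2, which with Ldb1 binds the enhancers, had 0 counts in Treg, 4 in CD4 and 6 in CD8. In KO against WT, 0 genes of these 3 lists passed under any label in edgeR.

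Markers of other cells of the spleen were read from the same libraries. Genes of B cells summed to 4793 to 5498 CPM in Treg, 3428 to 6983 in CD4 and 2869 to 6135 in CD8 libraries, and hemoglobin genes to 1089 to 1210 in Treg, 756 to 1513 in CD4 and 635 to 1473 in CD8. Myeloid and dendritic genes summed to 99.7 to 110 CPM in Treg, 58.8 to 107 in CD4 and 57.7 to 114 in CD8 libraries. The summed levels of all 3 lists overlapped between Treg and the other labels, and no gene of the 3 lists was at 0 in Treg. Of single genes, 4 of 12 B cell, 6 of 11 myeloid and 0 of 4 hemoglobin genes passed as higher in Treg against CD4 in edgeR, where 31.8% of all genes did, and 0 of them as lower. Against CD8, where 33% of all genes passed as higher, the numbers were 4 B cell, 5 myeloid and 0 hemoglobin genes, with 1 myeloid gene lower. The part of these cells in the olfactory receptor counts was not tested. T cell receptor and CD3 genes were at 724 to 1112 CPM in Treg, 888 to 1546 in CD4 and 923 to 1775 in CD8 libraries, and 3 of these 6 genes passed as lower and 0 as higher in Treg against CD4, and likewise against CD8. Of all 18963 genes, 3637 passed as lower against CD4 and 3689 against CD8.

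The annotated transcripts of the members differed from those of the other olfactory receptor genes in runs of A. A run of 10 or more A was present in 46 of 80 members (57.5%), in 80 of 330 genes with 1 to 9 Treg counts (24.2%) and in 47 of 684 with none (6.87%), beside 173 of all 1094 (15.8%). Runs of 10 or more T were present in 17.5% of members, 25.8% of genes with 1 to 9 counts, 9.65% of genes with none and 15.1% of all. The median transcript was 3868.5 bases in members, 3801 in genes with 1 to 9 counts and 2467.5 in genes with none, so longer transcripts were more often counted at all. The A runs thus ordered the 3 classes, while T runs did not. The search read only the sense strand of the longest transcript, and its part in the counts was not tested.

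The difference was seen within classes of transcript length. Among transcripts of 1500 to under 3000 bases, 9 of 44 genes with an A run were members (20.5%), against 9 of 366 without (2.46%). Among those of 3000 to under 5000 bases, the counts were 22 of 77 (28.6%) with a run against 18 of 316 (5.70%) without. At 5000 bases and over they were 14 of 49 (28.6%) with a run and 6 of 87 (6.90%) without. In each of these 3 classes the share with a run was the higher one.

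**Figure D5:**
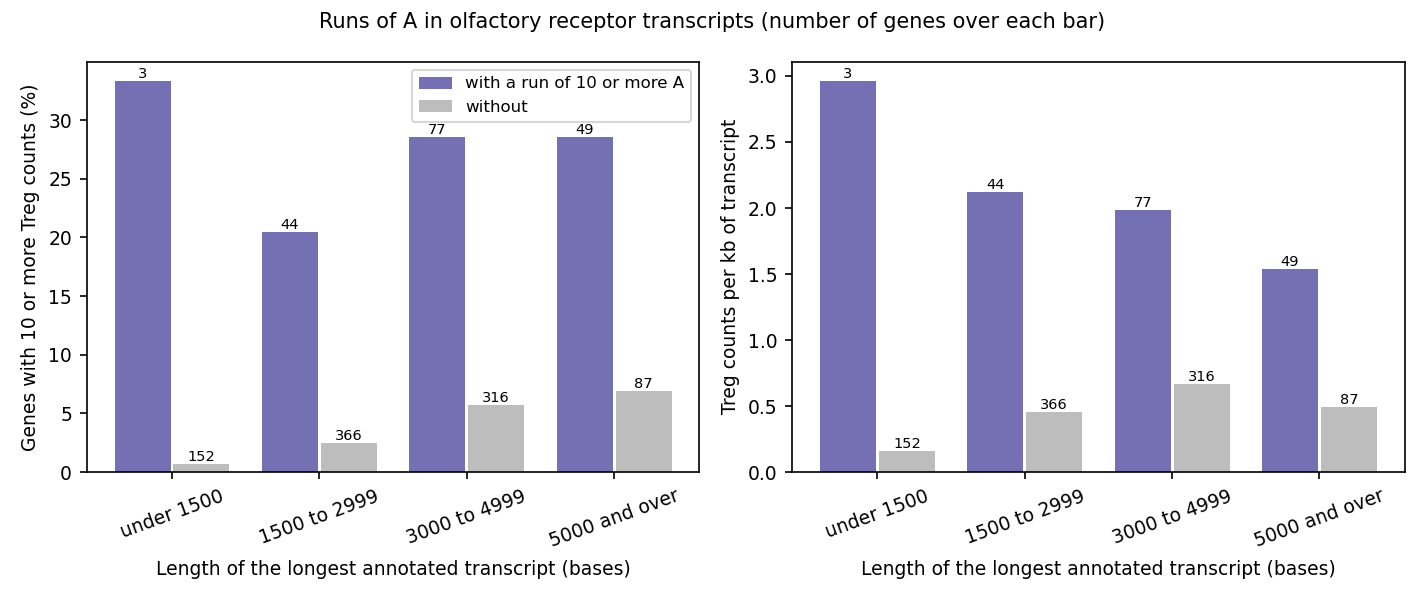
Olfactory receptor genes with (purple) and without (grey) a run of 10 or more A in the longest annotated transcript, by transcript length in bases, with the number of genes over each bar. Left, percent of genes with 10 or more Treg counts, and right, summed Treg counts per kb of transcript; in every class both are higher with a run, and the shortest class holds 3 genes with a run.

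Counts per kb of transcript gave the same order without a threshold. Olfactory receptor genes with an A run had 1.82 Treg counts per kb, against 0.536 without. In the libraries that the rule did not use, the values with and without a run were 0.0738 and 0.0226 counts per kb in CD4, and 0.0793 and 0.0212 in CD8. The counts per kb were thus higher with a run under each label, and lower in CD4 and CD8 than in Treg in both classes. They are sums over the libraries of a label and are not scaled for depth. That depth was 5646505 counts in Treg, 11345441 in CD4 and 11661361 in CD8. For T runs the values with and without a run were 0.993 and 0.758 in Treg, 0.0634 and 0.0257 in CD4, and 0.0648 and 0.0254 in CD8. In CD4 and CD8 the values were thus higher with a run of either base. They rest on few counts, 54 in CD4 and 58 in CD8 with an A run, and 45 and 46 with a T run. Olfr920 and Olfr1152, which hold both kinds of run, gave 33 of the counts in CD4 and CD8 libraries. Whether the relation in CD4 and CD8 is particular to runs of A cannot be told from these values.

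Genes of other families with no CD4 or CD8 count had the same relation. Of 425 other protein-coding genes of that kind with an A run, 118 (27.8%) had 10 or more Treg counts, against 212 of 5213 (4.07%) without a run. Their median transcript was 3709 bases with a run and 1746 without, and they were not split by length, so part of that gap may go with length. Per kb of transcript these genes had 1.82 Treg counts with a run and 0.680 without. Olfactory receptor genes with no CD4 or CD8 count gave 30 of 141 (21.3%) with a run and 28 of 870 (3.22%) without. The share with a run was therefore higher in both sets of genes, and it is not particular to olfactory receptors.

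Shared sequence limits single genes. At least 1 stretch of 50 bases also occurred in another gene's transcript for 64 of the 80 members, and for 18 members more than 10% of all such stretches did. Olfr560 shared the most with its neighbours, with 45.1% of its stretches. Of the 80 members, 8 overlap another annotated gene, and the other 72 had 1536 counts in Treg, 21 in CD4 and 25 in CD8 libraries.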

How the data were processed

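Counts of 3′ tags per gene were analysed as deposited, without normalization by the authors. The build was GRCm38 (mm10), and the tools were STAR 2.5.3a, Subread 2.0.0 with featureCounts, UMI-tools 1.0.0, cutadapt 2.10 and FastQC, per the submitters' processing notes. No source used here gives their order, the annotation release, the strand setting or the treatment of reads with several alignments. All columns were used. Of 55487 gene IDs, 55227 matched GENCODE M21, which gave symbols, positions, biotypes and transcripts. Pseudogenes were those of a pseudogene biotype (272 Olfr genes) and those with -ps in the symbol (41).

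Members, lists and tests were chosen with earlier results of these data known. Genes with 10 or more summed counts (18963) were fitted with edgeR 4.0.16 in R 4.3.3 (TMM, glmQLFit, glmQLFTest, Benjamini-Hochberg, threshold 0.05) on 16 samples of all 6 groups after merging. Libraries were called alike where a chi-square test found no difference over the genes with 20 or more counts in the pair. DESeq2 1.42.0 was an alternative. Single values were compared by exact permutation of samples, with family sums as log2(CPM + 1). Detection was computed as the expected number of genes with a count after drawing 841892 counts without replacement. Intervals are exact at 95%, and floors are 3 counts. In simulated Treg counts with 4-fold changes the fit called 31.25% of the members, 73.3% of 120 other changed genes and 3 of 18803 unchanged genes.

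Values are given for the 8 members with the highest Treg sum, the 4 with the highest CD4 and CD8 sum, the 3 on each side of the rule's limit, receptors reported outside the nose, and up to 4 called genes of a list and comparison. Olfr691, Olfr1342, Olfr543, Olfr177, Olfr560 and uncalled pathway genes were named after their values were seen.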

Additional observations from a re-analysis of the deposited data

Results flagged for a closer look

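In 26 comparisons of 1 sample with the rest of its group, Dixon's test at 95% set 4 samples apart, and chance sets about 1 in 20 apart. All 4 were CD4 libraries, with few counts behind each value. The expected number of the 80 olfactory receptor genes detected at the common depth was lowest in CD4 WT replicate 3, at 0.960. Vomeronasal receptors summed to the highest CD4 level, 13.2 CPM, in CD4 WT replicate 1. Taste receptors were at 0 CPM only in CD4 WT replicate 2 among the CD4 libraries. Keratin-associated proteins were above 0 only in CD4 KO replicate 2 among the CD4 libraries, at 0.534 CPM.

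Olfactory receptor pseudogenes, which the rule left out, were also counted. They summed to 31.5 CPM over the Treg libraries, against 0.705 CPM over CD4 and 1.20 CPM over CD8, with 178 counts in Treg, 8 in CD4 and 14 in CD8. Per library the Treg range was 20.2 to 43.1 CPM, above the highest CD4 value of 1.71 and the highest CD8 value of 2.20.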

How the results depend on the processing

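Of 278 alternative values of the results, 268 kept their direction and side of the threshold or moved by less than the limits used. Of the members tested, 0 passed in KO against WT or in CD8 against CD4 under RLE scaling, filterByExpr (17 members tested) and separate libraries. The same held with only the libraries compared, with DESeq2 where it gave an adjusted p, and without any 1 library. With only the libraries compared, 80 members were tested in KO against WT Treg, but 1 in CD4, 1 in CD8 and 2 in CD8 against CD4. DESeq2 gave 26 members an adjusted p in CD8 against CD4. Where so few were tested, the absence of calls says little about the 80 genes. Replicate numbers did not pair the samples under any label (KO and WT correlations of 0.17, -0.06 and -0.02 in Treg, -0.21, -0.45 and 0.07 in CD4, and -0.04, 0.10 and 0.54 in CD8), and with the replicate block 0 members passed in all 4 comparisons. The calls over all genes in KO against WT CD8 moved between settings, at 18 as reported, 36 with RLE, 1 with filterByExpr, 61 with separate libraries, 88 with the block, 46 with DESeq2 and 0 with only these libraries, and from 0 (without CD8 KO replicate 3 or WT replicate 2) to 503 (without WT replicate 3). CD8 against CD4 gave 727 and with DESeq2 402. CD8 minus CD4 genes detected turned to 64.3 at full depth and to 11.9 without CD8 WT replicate 1 (range -67.3 to 11.9). Keratin-associated proteins passed without Treg WT replicate 3 (exact permutation p = 0.0238), with differences ranging from 0.30 to 0.80 against CD4 and from 0.40 to 0.90 against CD8. KO against WT turned to 0.083 for Olfr1258 and 0.16 for Olfr432 without Treg WT replicate 1 (ranges -0.49 to 0.083 and -0.10 to 0.16). The rule gave 162 members at 5 counts, 30 at 20, and 86 with pseudogenes. The summed Treg level over CD4 was 103 to 123 without 1 library, and over CD8 96.1 to 138. Added settings, chosen after seeing the data, left out genes named Olfr from detection and recounted pathway calls. With filterByExpr 1 of 8 transduction genes was called in Treg against CD4, where 2 of 11 were. The causes were not tested.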
